A study of Rattus norvegicus with 9 samples.

Results

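The effect of BXD, Banxia Xiexin decoction, a herbal mixture given by gavage, was read in gastric lymphatic vessels of rats that had all gone through the same stress. The comparison rests on 6 of the 9 libraries of the study, 3 from stressed rats without the decoction (model) and 3 from stressed rats with it (BXD), and on all 14643 genes of 18964 that passed a filter on low counts. The rats were wild-type male Sprague-Dawley animals. In both groups they were fasted for 12 h, kept for 4 h in water 15 cm deep at 22 °C, a procedure used to produce stress ulcers of the stomach, and gavaged 30 min later with 10 ml per kg. BXD rats received the decoction. Model rats received a vehicle that the sample labels call saline and the treatment protocol calls distilled water. The 3 remaining libraries, from rats that were fasted and not stressed (control; distilled water by gavage per the protocol, blank per the labels), enter the estimate of the spread and are given for reference. Each group held 6 rats in the study, and no label ties a library to a rat or says whether animals were pooled, so the p-values speak only for the spread among libraries, which may be technical. Vessel contraction and energy metabolism are the 2 processes named in the study's question on the decoction. The sources used here do not give the time between gavage and collection.

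Collecting lymphatic vessels pump lymph with a coat of smooth muscle. Action potentials admit calcium through voltage-gated channels, calmodulin and myosin light chain kinase then switch on smooth muscle myosin, and nitric oxide from the endothelium relaxes the coat by way of guanylate cyclase. The vessels run embedded in fat, so a dissected sample holds fat cells, nerve fibres, blood and vessel wall together, and a bulk RNA library cannot tell fewer cells of a type from less RNA per cell. Skeletal muscle is no part of the vessel wall, and its thick and thin filaments, titin and calcium pump are made from genes that smooth muscle uses little or not at all.

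The 6 libraries held between 12313823 and 13455701 counts. Prox1, Lyve1, Pdpn and Flt4, markers of lymphatic endothelium, and the smooth muscle markers Acta2, Myh11, Cnn1 and Tagln had counts in every library, as did the fat cell markers Adipoq, Plin1 and Cidec and the brown fat marker Ucp1. Atp4a and Atp4b, the acid pump of the gastric gland, held at most 3 counts in any of the 6 libraries. The atrial hormone gene Nppa held 0 to 2 counts.

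Skeletal muscle RNA set 2 of the 3 BXD libraries apart. Over 52 tested genes of skeletal muscle filaments, calcium handling and energy enzymes, the mean level was 6.65 in BXD replicate 1 and 5.80 in BXD replicate 3, on the log2 scale of CPM, the count of a gene relative to the library's total, scaled for composition. It was 0.75 in BXD replicate 2 and 0.39, 3.31 and -0.06 in model replicates 1, 2 and 3. These genes took 1.21% of all counts in BXD replicate 1, 0.712% in BXD replicate 3 and 0.0223% in BXD replicate 2, against 0.0191%, 0.0921% and 0.0155% in the model libraries. Acta1, the actin of skeletal muscle, stood at 2389, 21.7 and 1575 CPM in BXD replicates 1 to 3 and at 6.66, 156 and 4.56 CPM in model replicates 1 to 3. Ckm, the muscle creatine kinase, was at 853, 7.85 and 483 CPM in BXD and at 1.84, 53.7 and 0.608 CPM in model. Model replicate 2 thus held some of the same RNA, less than BXD replicates 1 and 3 and more than BXD replicate 2. In the list mean BXD replicate 2 lay a little above model replicates 1 and 3. The gap was wider for Acta1, Ckm and the myosin gene Myh1, the last at 2.67 CPM against 0.350 and 0.228 CPM. The troponin gene Tnnt3, at 18.0 CPM, lay between model replicates 1 and 3, at 19.0 and 12.9 CPM.

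**Figure D1:**
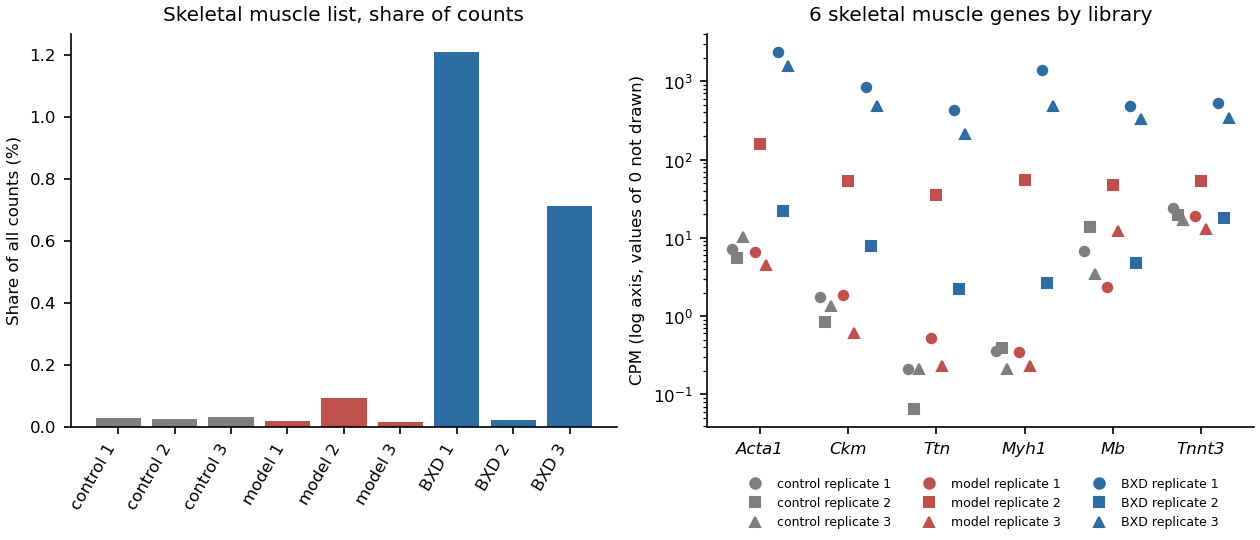
Left, the share of all counts taken by 52 skeletal muscle genes in each of the 9 libraries. Right, CPM of 6 of these genes on a log axis, 1 point per library, where BXD replicates 1 and 3 lie above every other library and model replicate 2 comes next. BXD replicate 2 lies above the remaining libraries for Acta1, Ckm and Myh1 and among them for Tnnt3.

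None of the 52 genes passed the test between the groups. Myh1, a fast myosin heavy chain, had a log2 fold change of 5.07 with a standard error (SE) of 2.05, and Ttn, titin, 4.15 with an SE of 1.75. The adjusted p was 0.21 and 0.224, here and throughout from edgeR's quasi-likelihood test with Benjamini-Hochberg adjustment over all 14643 genes. The median log2 fold change of the 5 skeletal muscle lists lay between 3.59 and 4.35 with all libraries, and between -1.66 and -1.06 with BXD replicate 2 as the only BXD library. With model replicate 2 left out as well, so that BXD replicate 2 met model replicates 1 and 3, the medians lay between 0.03 and 0.90. With the skeletal muscle mean as a covariate they lay between -0.30 and 0.17. That covariate is the mean of these same 52 genes, so it draws their medians towards 0 by construction. The called genes and the gene lists below are given with all 3 BXD libraries and also with BXD replicate 2 alone, the BXD library lowest in this RNA. In the second fit the lone library is assumed to vary like the libraries of the other groups.

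Between BXD and model, 9 of 14643 genes (0.0615%) had an adjusted p under 0.05 and are referred to as called, 8 higher in BXD (0.0546%) and 1 lower (0.00683%). At an unadjusted p under 0.05 there were 3055 genes (20.9%), 1613 higher (11%) and 1442 lower (9.85%). Between model and control, with the same number of libraries in each group, 3161 genes (21.6%) were called higher in model and 3016 (20.6%) lower. With the skeletal muscle mean as a covariate 3 genes were called between BXD and model, Csf2rb and B4galt6 higher (0.0137%) and Wbp11l1 lower. With BXD replicate 2 alone 4 were called, Hmox1, Rgs2 and Asap3 higher (0.0196%) and Wbp11l1 lower (0.00655%). Without BXD replicate 1 the count was 154, with 135 higher (0.907%) and 19 lower (0.128%), and 0 of them in the skeletal muscle lists. Leaving out BXD replicate 2 gave 112 of 14934 genes, and 18 of the 112 belonged to the skeletal muscle lists. Those lists do not hold every gene of skeletal muscle. Calls outside them in this fit included the muscle genes Cav3, Clcn1 and Trim63, at log2 fold changes of 4.38, 3.18 and 4.35. How many of the other calls were muscle genes was not counted. With BXD replicate 3 or either of model replicates 1 and 2 left out the count was 1, so single libraries decided how many genes passed. Without model replicate 3 it was 3. The tools also differed, with 1129 genes called by DESeq2 (643 higher, 4.39%, and 486 lower, 3.32%) and 3 by limma-voom on the same counts. Of the 1129, 20 belonged to the skeletal muscle lists, and muscle genes outside those lists were not counted. The authors' deposited table, made with DESeq2, lists 533 genes with a q-value under 0.05, 356 higher and 177 lower, and all 9 genes called by edgeR are among them. The 533 also include genes of the skeletal muscle lists, such as Ldb3, Myom1 and Jph1 (q = 0.00045, 0.0038 and 0.0056). Myh1, Acta1 and Ckm, with q-values of 0.28, 0.17 and 0.21, are not among them.

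Of the 8 genes called higher, 4 code for proteins that bind or shape the cytoskeleton. Synm, synemin, is an intermediate filament protein of muscle (chromosome 1, from 128692112 to 128722048, plus strand, Rnor_6.0). It stood at 136, 114 and 125 CPM in model replicates 1 to 3 and at 270, 251 and 232 CPM in BXD, with controls at 127, 133 and 153 CPM. The 3 BXD libraries were close together and above all 6 others. The log2 fold change was 1.01 (SE 0.11, adjusted p = 0.032), and it was 1.01 with BXD replicate 2 alone (adjusted p = 0.186) and 1.04 with the muscle covariate (adjusted p = 0.0621). Tmod1, tropomodulin, which caps the pointed ends of actin filaments (chromosome 5, from 61635244 to 61712052), was at 14.4, 10.3 and 11.8 CPM in model and at 43.7, 27.1 and 41.4 CPM in BXD. Its 2 highest values were those of BXD replicates 1 and 3, the libraries with most skeletal muscle RNA, and the log2 fold change of 1.62 (SE 0.20, adjusted p = 0.0386) became 1.16 with BXD replicate 2 alone (adjusted p = 0.186) and 1.36 with the covariate (adjusted p = 0.0621).

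Wipf3, a member of the WASP-interacting family that binds actin (chromosome 4, from 84596305 to 84676775), stood at 14.8, 11.6 and 11.6 CPM in model and at 24.9, 24.6 and 24.2 CPM in BXD. Controls lay higher still, at 55.9, 55.6 and 59.4 CPM. The change of 0.95 on the log2 scale (SE 0.12, adjusted p = 0.0386) was 0.96 with BXD replicate 2 alone (adjusted p = 0.186). Asap3, a GTPase-activating protein for Arf that acts on actin and focal adhesions (chromosome 5, from 154551901 to 154596125), had the same order of groups. It was at 10.5, 11.4 and 11.3 CPM in model, at 20.6, 28.6 and 27.6 CPM in BXD and at 48.3, 53.3 and 52.6 CPM in control. The log2 difference was 1.21 (SE 0.14, adjusted p = 0.032). Asap3 was lowest in BXD replicate 1, the library with most skeletal muscle RNA, and was still called with BXD replicate 2 alone, at 1.37 (adjusted p = 0.0493).

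Csf2rb, the beta chain common to the receptors of several blood cell growth factors (chromosome 7, from 119554383 to 119568248), stood at 37.8, 24.1 and 37.0 CPM in model and at 101, 142 and 100.02 CPM in BXD. Controls were at 42.3, 37.2 and 42.5 CPM, so that BXD lay above both other groups. The log2 fold change was 1.80 (SE 0.20, adjusted p = 0.032), 2.11 with BXD replicate 2 alone (adjusted p = 0.105) and 2.16 with the muscle covariate (adjusted p = 0.00392). Of 14 tested haematopoietic growth factor receptors Csf2rb was the 1 called, and the list's median was 0.07, or -0.07 with BXD replicate 2 alone. Csf2ra, the chain that binds the granulocyte and macrophage growth factor itself, was at 17.6, 12.5 and 13.9 CPM in model and at 16.4, 13.3 and 11.7 CPM in BXD, and Il3ra at 23.9, 15.7 and 20.6 CPM and 31.6, 19.5 and 21.7 CPM. Both overlapped between the groups.

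Wnk2, a kinase of the WNK family that controls chloride cotransporters (chromosome 17, from 15923508 to 16032271), stood at 4.64, 3.67 and 3.57 CPM in model and at 17.3, 10.8 and 14.6 CPM in BXD. The change was 1.84 on the log2 scale (SE 0.22, adjusted p = 0.032) and 1.45 with BXD replicate 2 alone (adjusted p = 0.186). Of the 12 tested genes of WNK kinases and their cotransporters it was the 1 called, and the list's median was 0.09, or 0.13 with BXD replicate 2 alone. Wnk4 was at 12.5, 6.81 and 10.3 CPM in model and at 15.0, 24.9 and 22.7 CPM in BXD, without overlap but with an adjusted p of 0.119, and Wnk1 overlapped, at 212 to 239 CPM in model and 204 to 248 CPM in BXD. Slc12a2, the cotransporter that carries sodium, potassium and chloride into the cell, was at 59.0, 148 and 92.6 CPM in model and at 54.4, 57.1 and 55.3 CPM in BXD (adjusted p = 0.149).

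Id4, an inhibitor of helix-loop-helix transcription factors (chromosome 17, from 16692557 to 16695126, minus strand), stood at 30.8, 26.6 and 28.5 CPM in model and at 79.4, 64.7 and 54.1 CPM in BXD. Controls lay near the model libraries at 29.0, 36.0 and 32.6 CPM. The log2 fold change was 1.21 (SE 0.15, adjusted p = 0.0386), and 1.18 with BXD replicate 2 alone (adjusted p = 0.186). LOC102555341, an unnamed gene with no description in the deposited annotation (chromosome 4, from 181205772 to 181222088), was at 0.788, 0.627 and 0.456 CPM in model and at 3.09, 3.22 and 2.79 CPM in BXD, with a log2 difference of 2.27 (SE 0.29, adjusted p = 0.0399) that was 2.36 with BXD replicate 2 alone (adjusted p = 0.186). The BXD and model libraries did not overlap for any of the 9 called genes.

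**Figure D2:**
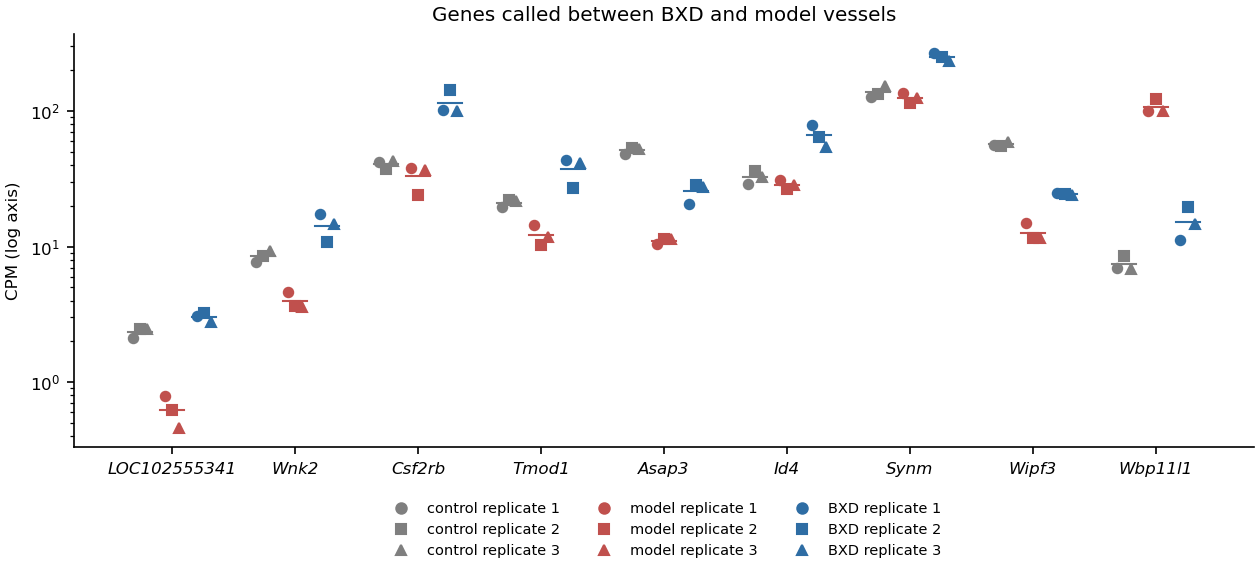
CPM of the 9 called genes in each library on a log axis, with 1 point per library and a bar at the group mean. BXD lies above model for 8 genes and below it for Wbp11l1, and control lies above BXD for Asap3 and Wipf3 and overlaps model for Csf2rb, Id4 and Synm.

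The single gene called lower, Wbp11l1 (chromosome 4, from 170154257 to 170167724, minus strand), stood at 99.4, 122 and 99.8 CPM in model and at 11.1, 19.5 and 14.7 CPM in BXD, a log2 difference of -2.82 (SE 0.20, adjusted p = 0.00236), and -2.46 with BXD replicate 2 alone (adjusted p = 0.0354). It is reported as uncertain, since Wbp11, which codes for a pre-mRNA splicing factor, had the opposite order of groups (adjusted p = 0.0763). Wbp11 lies on the same strand of the same chromosome, from 170772166 to 170785613. It was at 0, 0.0896 and 5.92 CPM in model and at 86.6, 72.5 and 74.7 CPM in BXD. Summed over both genes, the levels were 99.4, 122 and 106 CPM in model and 97.7, 92.0 and 89.5 CPM in BXD, with a log2 difference of -0.23 (SE 0.10, adjusted p = 0.232), and 53.1, 50.6 and 53.8 CPM in control. RefSeq's gene table for the later rat assembly GRCr8 gives Wbp11l1 as a synonym of Wbp11 and lists 8 pseudogenes of it. Whether reads of 1 gene were divided between the 2 was not tested, since no reads or transcript sequences were used here.

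**Figure D3:**
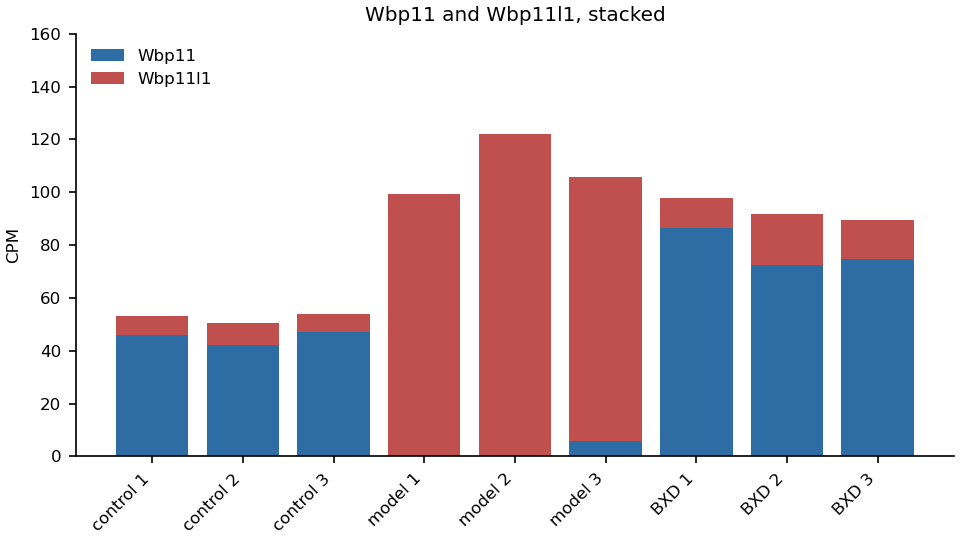
Stacked bars of the CPM of Wbp11 and Wbp11l1 in each of the 9 libraries. Wbp11l1 holds nearly all of the sum in the model libraries and the smaller part in control and BXD, while the summed level of BXD, 89.5 to 97.7 CPM, lies a little below that of model.

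Just beyond the threshold lay genes of several kinds. Reep1, which shapes the endoplasmic reticulum, stood at 10.7, 7.44 and 10.0 CPM in model and at 28.5, 41.9 and 37.7 CPM in BXD (log2 fold change 1.94, SE 0.28, adjusted p = 0.0558), and with BXD replicate 2 alone the value was 2.16. Dmpk, a kinase of muscle, was at 96.9, 77.1 and 83.6 CPM in model and 217, 156 and 176 CPM in BXD (1.09, SE 0.16, adjusted p = 0.0558). Its lowest BXD value was that of replicate 2, the BXD library with least skeletal muscle RNA. On the lower side Oxtr, the oxytocin receptor, which contracts smooth muscle of other organs, was at 30.4, 15.4 and 17.2 CPM in model, 4.01, 2.12 and 6.79 CPM in BXD and 13.2 to 17.1 CPM in control (-2.28, SE 0.40, adjusted p = 0.0763). Fars2, which charges phenylalanine to transfer RNA in mitochondria, was at 27.4, 37.0 and 28.7 CPM in model and 17.4, 18.7 and 17.0 CPM in BXD (-0.81, SE 0.14, adjusted p = 0.0763). BXD was below every control library for Oxtr and within or near the control range for Fars2, at 16.7 to 18.4 CPM. With BXD replicate 2 alone the values of Oxtr and Fars2 were -3.30 and -0.73.

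Some genes split the BXD libraries instead. Hmox1, haem oxygenase, was at 59.7, 58.7 and 61.2 CPM in model and at 64.1, 199 and 144 CPM in BXD, where replicate 1 lay next to the model libraries. The log2 difference was 1.18 (SE 0.32, adjusted p = 0.121) with all libraries and 1.73 with BXD replicate 2 alone (adjusted p = 0.0165). Adam12, a metalloprotease, was at 40.6, 58.7 and 54.1 CPM in model and 47.9, 22.4 and 24.8 CPM in BXD, and Pim3, a growth-signal kinase, at 150, 181 and 145 CPM and 237, 89.0 and 77.2 CPM. Both were called lower only in the fit without BXD replicate 1 among the fits that left out 1 library, at -1.12 and -0.93 (adjusted p = 0.0388). For all 3 genes BXD replicate 1 stood apart from the other BXD libraries.

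Contractile genes of smooth muscle had the largest share of members above model among the lists, although none of the 26 tested was called. In 21 of 26 (80.8%) the 3 BXD libraries all lay above the 3 model libraries, and in 0 below, against 10.5% above and 11.8% below over all 14643 genes. At an unadjusted p under 0.05 there were 22 of 26, against 11% of all genes in that direction. The median log2 fold change was 1.16, and 1.10 with the skeletal muscle mean as a covariate. With BXD replicate 2 alone it was 1.00, and that library lay above all 3 model libraries for 23 of 26 genes, against 30.8% of all genes. This list was chosen with earlier results of these libraries known and is not independent evidence of its direction.

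Myh11, the myosin heavy chain of smooth muscle, stood at 1082, 589 and 845 CPM in model, 3099, 2024 and 1821 CPM in BXD and 1732, 1600 and 2351 CPM in control (log2 fold change 1.47, SE 0.28, adjusted p = 0.0879). Acta2, the smooth muscle actin, was at 971, 545 and 833 CPM in model and 2379, 1668 and 1531 CPM in BXD (1.25, SE 0.26, adjusted p = 0.0956). BXD lay above model in both, and model replicate 2 was the lowest library in both. Mylk, the myosin light chain kinase, was at 646, 485 and 497 CPM in model and 1331, 1128 and 983 CPM in BXD (1.08, SE 0.17, adjusted p = 0.0717). Synpo2, an actin-bundling protein, was at 37.2 ± 10.3 CPM in model and 123 ± 33.6 CPM in BXD (SD, n = 3; adjusted p = 0.0558), Tagln, transgelin, at 510 ± 163 CPM and 1246 ± 144 CPM, and Myl9, the regulatory light chain, at 407 ± 133 CPM and 1038 ± 79.9 CPM. Srf, the transcription factor that drives many contractile genes, did not separate the groups, at 124, 112 and 100 CPM in model and 168, 112 and 97.4 CPM in BXD, and its coactivator Myocd overlapped as well.

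Several members of this list are made in skeletal muscle too, and their values were highest in the libraries with most skeletal muscle RNA. Hspb6, a small heat shock protein of muscle, was at 20.3, 20.3 and 19.8 CPM in model and at 73.6, 44.0 and 75.9 CPM in BXD, with a log2 difference of 1.68 (SE 0.23, adjusted p = 0.0558) that was 1.13 with BXD replicate 2 alone. Casq2, a calcium store protein, was at 12.0, 8.51 and 10.3 CPM in model and 42.6, 17.5 and 37.4 CPM in BXD, and its 1.66 became 0.77. Des, desmin, was at 672, 292 and 383 CPM in BXD and 156, 90.4 and 95.2 CPM in model, and its 1.98 became 1.36. For Myh11, Acta2, Mylk and Tagln, the values with BXD replicate 2 alone were 1.27, 1.09, 1.05 and 1.25. Hspb6, Casq2 and Des thus lost more of their difference without the 2 libraries than these 4 genes did. Apart from Hspb6, named for its small p, these genes were chosen after their values were seen. Model replicate 2 held the most skeletal muscle RNA among the model libraries (mean 3.31 as log2 CPM). It was the lowest model library for Casq2 and Des, and for Hspb6 it was level with another model library at 20.3 CPM. It was also the lowest model library in the mean of the whole smooth muscle contractile list, at 6.49 against 7.15 and 6.87 as log2 CPM. Whether skeletal muscle RNA accounts for the larger loss was not tested.

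Among 23 regulators of actin and intermediate filaments, 2 were called higher (Synm and Tmod1), 12 lay above model without overlap (52.2%, against 10.5% of all genes) and 0 below, with a median of 0.70, or 0.50 with BXD replicate 2 alone. Cryab, a chaperone of desmin filaments, was at 38.7, 34.8 and 35.2 CPM in model and 157, 82.3 and 96.1 CPM in BXD (log2 fold change 1.63, SE 0.25, adjusted p = 0.0717). Among 30 genes of calcium release and contraction signalling none was called, 12 lay above (40%, against 10.5% of all genes) and 2 below (6.67%, against 11.8%). The median was 0.42, or 0.32 with BXD replicate 2 alone. Rgs2, which turns off contraction signals from G protein receptors, was at 32.8, 27.1 and 32.8 CPM in model and 65.0, 95.1 and 134 CPM in BXD (1.67, SE 0.23, adjusted p = 0.0558), and passed with BXD replicate 2 alone at 1.62 (adjusted p = 0.0354). Ryr3, a calcium release channel, was at 5.08, 4.03 and 5.85 CPM in model and 13.2, 14.7 and 9.51 CPM in BXD (1.32, SE 0.21, adjusted p = 0.0717), with controls at 14.7 to 15.4 CPM. Gucy1b3, part of the guanylate cyclase that senses nitric oxide, was at 21.6 ± 4.41 CPM in model and 40.0 ± 6.79 CPM in BXD (SD, n = 3), and Ednrb, an endothelin receptor, at 116 ± 14.7 CPM and 191 ± 37.4 CPM. Itpr2, another calcium release channel, and Adra1a, an adrenergic receptor, were the 2 below, with log2 fold changes of -0.76 and -1.03.

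Of 19 ion channels linked to the pacemaking of lymphatic vessels none was called, 7 lay above model (36.8%, against 10.5% of all genes) and 1, the gap junction gene Gja1, below. The median was 0.37, or 0.29 with BXD replicate 2 alone. Kcnma1, the large-conductance calcium-activated potassium channel, stood at 1.75, 0.896 and 1.37 CPM in model, 6.76, 4.24 and 4.98 CPM in BXD and 3.83 to 3.93 CPM in control (log2 fold change 1.98, SE 0.30, adjusted p = 0.0692). Its subunit Kcnmb1 was at 22.3, 10.8 and 15.8 CPM in model and 50.5, 35.0 and 33.6 CPM in BXD. Cacna1c, the L-type calcium channel, was at 38.9, 30.3 and 29.2 CPM in model and 76.0, 59.7 and 51.3 CPM in BXD (0.93, SE 0.17, adjusted p = 0.0879), and Cacna1h, a T-type channel, at 10.2 ± 1.79 CPM and 23.3 ± 8.64 CPM (SD, n = 3). With BXD replicate 2 alone these 4 values were 1.65, 1.10, 0.86 and 1.04, each still positive.

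Most transcripts of oxidative energy metabolism lay lower in BXD. Of 49 nuclear genes of oxidative phosphorylation, 43 (87.8%, against 11.8% of all genes) had all 3 BXD libraries below all 3 model libraries and 0 above, as had 17 of 18 genes of the tricarboxylic acid cycle and 18 of 23 of fatty acid oxidation, the last with 1 above. None was called. The medians of the 3 lists were -0.69, -0.89 and -1.01, and -0.77, -1.01 and -1.12 with BXD replicate 2 alone. That library lay below all 3 model libraries for 47, 18 and 20 of these genes, against 31.5% of all genes. Ndufs8, a subunit of complex I, was at 99.5, 159 and 98.9 CPM in model and 56.7, 61.4 and 75.3 CPM in BXD (log2 fold change -0.89, SE 0.20, adjusted p = 0.099). Echs1, which acts in fatty acid oxidation, was at 242, 390 and 260 CPM in model, 78.3, 113 and 150 CPM in BXD and 55.2 to 87.0 CPM in control (-1.39, SE 0.27, adjusted p = 0.0879). Model replicate 2 was the highest library for both genes. Without model replicate 2 the medians were -0.36, -0.51 and -0.58, and 43, 17 and 18 genes lay below model without overlap.

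Ppargc1a, the coactivator of mitochondrial gene expression, stood at 146, 293 and 136 CPM in model, 71.5, 95.1 and 97.9 CPM in BXD and 12.1 to 27.0 CPM in control, with an adjusted p of 0.138 between BXD and model. Glycolysis was mixed, with 11 of 21 genes below model (52.4%, against 11.8% of all genes), 3 above (14.3%, against 10.5%) and none called. The median was -0.50, or -0.67 with BXD replicate 2 alone. Eno1, enolase, was at 1089 ± 268 CPM in model and 636 ± 79.3 CPM in BXD (SD, n = 3), whereas Hk1 and Pfkp, a hexokinase and a phosphofructokinase, were at 111 ± 22.5 CPM and 55.4 ± 7.23 CPM in model and at 169 ± 18.7 CPM and 93.9 ± 8.25 CPM in BXD. Skeletal muscle is rich in mitochondrial enzymes. With the skeletal muscle mean as a covariate the median of oxidative phosphorylation was -0.89 and that of the tricarboxylic acid cycle -1.16. In the same fit the medians of fatty acid oxidation and glycolysis were -1.27 and -0.77. Whether skeletal muscle RNA moved these lists was not otherwise tested. The mean level of the oxidative phosphorylation list was 7.32, 7.23 and 7.50 in BXD replicates 1 to 3, as log2 CPM. In model it was 7.67, 8.53 and 7.62, above all BXD libraries.

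Fat cell transcripts lay lower in the same libraries. The mean of 24 adipocyte genes was 9.44, 10.10 and 9.32 in model, 8.91, 8.85 and 9.13 in BXD and 8.23 to 8.67 in control, as log2 CPM, and these genes took 2.78% to 4.37% of the counts in model and 2.13% to 2.44% in BXD. In 9 of 24 genes (37.5%, against 11.8% of all genes) the BXD libraries were all below model and in 0 above. The median was -0.65, or -0.78 with BXD replicate 2 alone, and none was called. Adipoq, the fat cell hormone adiponectin, was at 2060, 3219 and 2337 CPM in model and 1187, 1379 and 1793 CPM in BXD (log2 fold change -0.80, SE 0.20, adjusted p = 0.111). Ucp1, the uncoupling protein of brown fat, was at 1961, 5632 and 2641 CPM in model and 550, 940 and 1134 CPM in BXD (-1.96, SE 0.49, adjusted p = 0.11). Model replicate 2 had the highest value of both. With the adipocyte mean as a covariate, an alternative added after the data were seen, the medians of oxidative phosphorylation, the tricarboxylic acid cycle and fatty acid oxidation were 0.07, 0.02 and -0.08. Those of the smooth muscle contractile list and of the actin and filament list were 0.74 and 0.44. That fit called 0 genes with edgeR, with 1276 at an unadjusted p under 0.05. The adipocyte means of model and BXD did not overlap, so the fat cell level and the group cannot be told apart well.

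**Figure D4:**
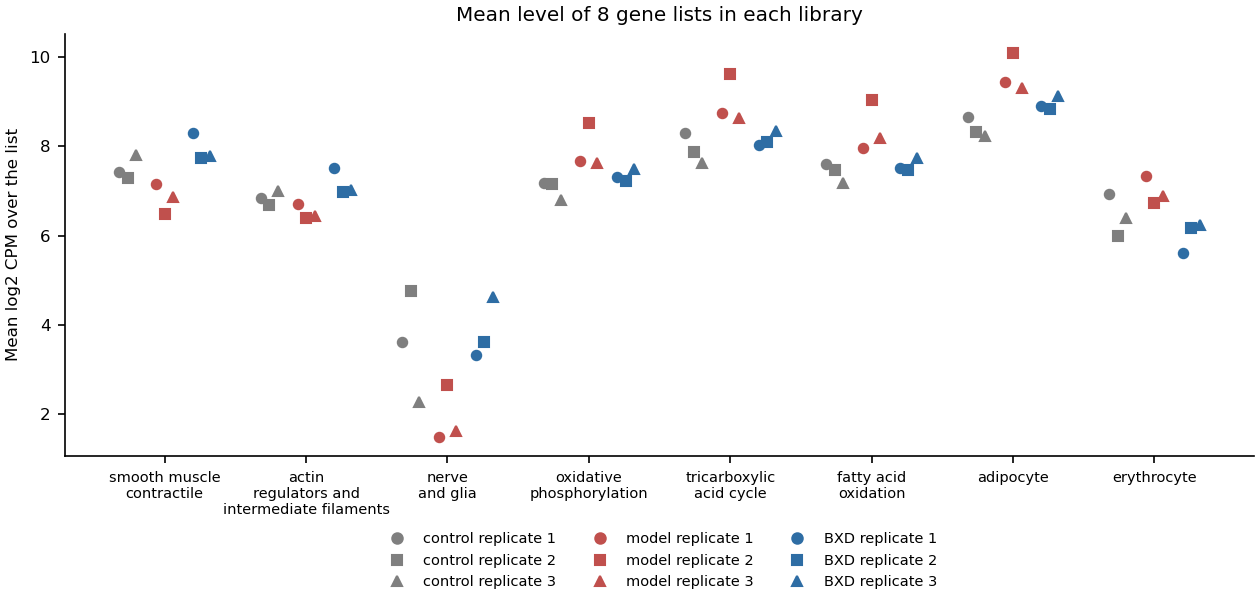
Mean log2 CPM of 8 gene lists in each of the 9 libraries, 1 point per library. BXD lies above model for the smooth muscle, actin, and nerve and glia lists and below it for the energy, adipocyte and erythrocyte lists, and model replicate 2 is the highest library of the adipocyte and energy lists and the lowest of the smooth muscle list.

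The endothelial lists had small positive medians. Of 15 genes of lymphatic endothelium 2 lay above model without overlap (13.3%, near the 10.5% of all genes) and 0 below. A positive log2 fold change was found in 13, against 49.2% of all genes, with a median of 0.33, or 0.48 with BXD replicate 2 alone. The median turned to -0.24 with the adipocyte covariate. Prox1, the transcription factor of lymphatic identity, was at 30.4, 13.9 and 28.0 CPM in model, 32.8, 73.8 and 55.6 CPM in BXD and 68.1 to 100.2 CPM in control (log2 fold change 1.16, SE 0.34, adjusted p = 0.131). Lyve1, a hyaluronan receptor, overlapped, at 304, 196 and 235 CPM in model and 256, 286 and 234 CPM in BXD. Of 18 genes of blood endothelium 4 lay above (22.2%, against 10.5%) and 0 below, with a median of 0.33, or 0.50 with BXD replicate 2 alone. Among the 4 was Erg, an endothelial transcription factor, at 38.2, 31.5 and 42.2 CPM in model and 57.3, 57.9 and 59.6 CPM in BXD (0.64, SE 0.12, adjusted p = 0.0879). Nos3, the endothelial nitric oxide synthase, was at 236, 153 and 158 CPM in model and 216, 425 and 312 CPM in BXD, where BXD replicate 1 lay within the model range.

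Nerve and glial genes had the largest median outside muscle, 1.76, with 13 of 17 above model (76.5%, against 10.5% of all genes), 0 below and none called. With BXD replicate 2 alone the median was 1.88. At an unadjusted p under 0.05 with edgeR, 13 members were higher and 1 lower. Summed over the list, the groups overlapped, at 468, 797 and 520 CPM in model and 559, 603 and 915 CPM in BXD. Sox10, a transcription factor of glia, stood at 2.10, 3.67 and 2.66 CPM in model, 5.26, 11.9 and 11.4 CPM in BXD and 16.5 to 31.7 CPM in control (log2 fold change 1.76, SE 0.38, adjusted p = 0.0959). Th, the rate-limiting enzyme of catecholamine synthesis, was at 2.50, 2.04 and 20.2 CPM in BXD and at 0, 0.986 and 0 CPM in model. Controls spread as widely, with Th at 1.56, 19.3 and 0.561 CPM, so the neuronal members of the list vary between libraries of 1 group.

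Red cell and macrophage transcripts lay lower. Of 9 erythrocyte genes 7 were below model without overlap (77.8%, against 11.8% of all genes) and 0 above, with a median of -1.03, or -0.90 with BXD replicate 2 alone. Hba1, an alpha globin, was at 8773, 5999 and 5888 CPM in model and 2653, 3271 and 3666 CPM in BXD (log2 fold change -1.11, SE 0.29, adjusted p = 0.116), and its reads may be divided with those of the similar Hba2. Of 19 macrophage and dendritic cell genes 7 were below (36.8%, against 11.8%) and 0 above, with a median of -0.34 in both fits. Mrc1, the mannose receptor, was at 151, 157 and 137 CPM in model and 101, 111 and 127 CPM in BXD (-0.39, SE 0.11, adjusted p = 0.125). Of 20 lymphocyte genes 1 was below (5%, under the 11.8% of all genes), Cd4, which rat macrophages also make, at 117 ± 21.7 CPM in model and 70.5 ± 10.5 CPM in BXD (SD, n = 3). The lymphocyte median was -0.84, or -0.35 with BXD replicate 2 alone. The mean level of this list was 1.45, 2.10 and 3.78 in model replicates 1 to 3, as log2 CPM. In BXD it was 1.83, 2.48 and 1.43, so the groups overlapped and model replicate 3 was the highest library.

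Acute stress and clock genes did not separate the groups with all libraries in, and depended on BXD replicate 1. Of 26 immediate early genes and 19 clock genes, 0 lay above and 0 below without overlap. The immediate early mean was 7.30 in BXD replicate 1, 5.81 in replicate 2 and 5.12 in replicate 3, and 6.07, 5.79 and 5.65 in model, as log2 CPM, so that BXD replicate 1 set the median of 0.53, which was -0.45 without it and -0.17 with BXD replicate 2 alone. Without BXD replicate 1, 10 of 26 immediate early genes and 7 of 19 clock genes lay below model without overlap, against 20.9% of all genes, and 0 and 1 above. The clock median was -0.13 with all libraries, -0.29 without BXD replicate 1 and -0.43 with BXD replicate 2 alone, which lay below all 3 model libraries for 11 of the 19 clock genes, against 31.5% of all genes. Fosb was at 91.8, 12.5 and 4.53 CPM in BXD, and the chemokine gene Cxcl1 at 174, 31.9 and 4.53 CPM. The median of 19 cytokine and chemokine genes was 0.42, and 0.44 with BXD replicate 2 alone. Of these 19, 1 lay above model without overlap (5.26%, against 10.5% of all genes) and 0 below. Of 19 glucocorticoid response genes 2 lay above (10.5%, the share of all genes) and 1 below, and the median of 0.14 was -0.10 with BXD replicate 2 alone. The 2 above were Mt1 and Mt2A, metal-binding metallothioneins, with Mt2A at 586, 348 and 382 CPM in model, 1154, 1076 and 703 CPM in BXD and 14.6 to 25.6 CPM in control (log2 fold change 1.16, SE 0.28, adjusted p = 0.106), though reads of these similar genes may be divided between them.

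**Figure D5:**
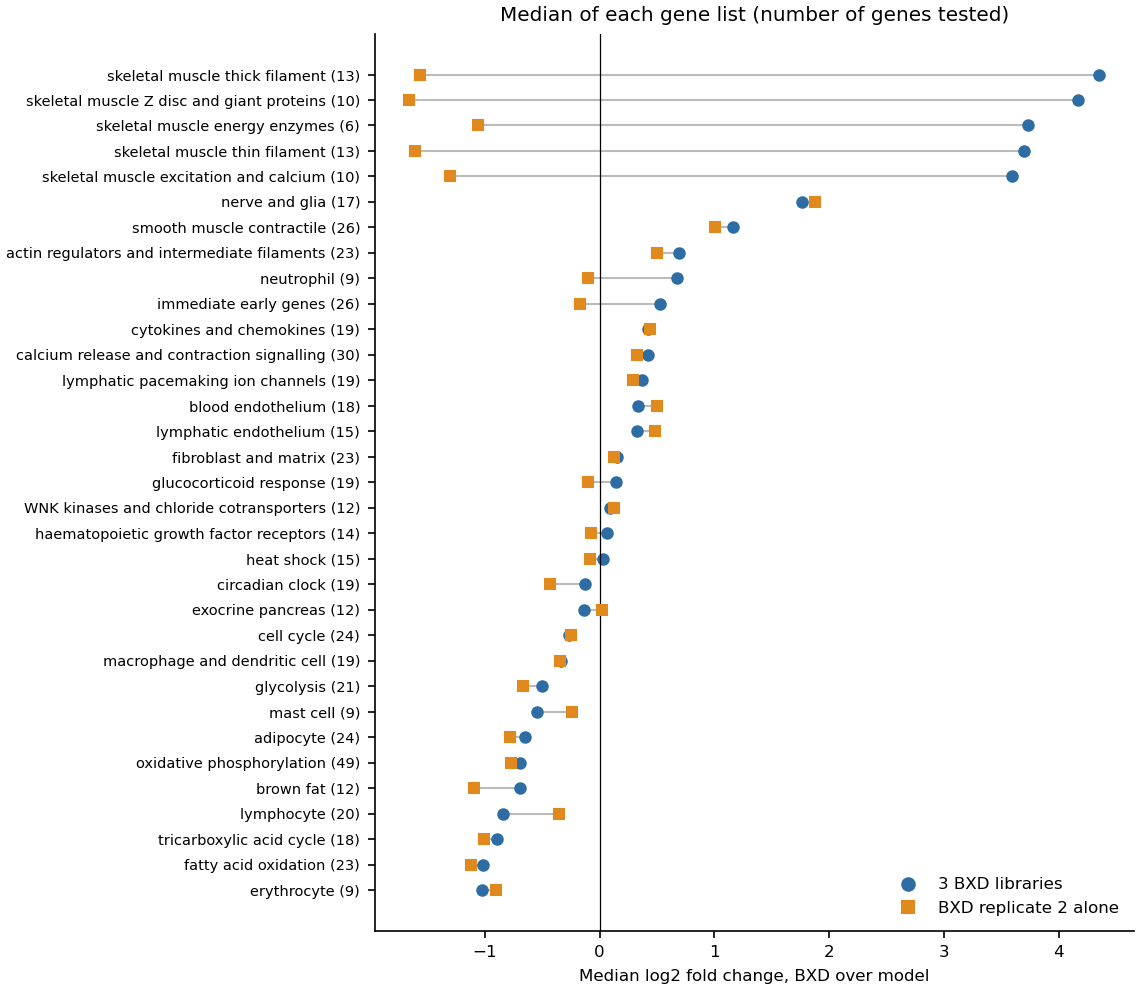
Median log2 fold change, BXD over model, of each gene list with at least 5 tested genes, with all 3 BXD libraries (circles) and with BXD replicate 2 alone (squares). The 5 skeletal muscle lists change sign between the 2 fits. With smaller medians, so do the neutrophil, haematopoietic growth factor receptor, immediate early, glucocorticoid, heat shock and exocrine pancreas lists. The smooth muscle, nerve, energy, adipocyte and erythrocyte lists stay on the same side of 0.

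The same lists differed between model and control, a comparison that shares the model libraries, so a model library that is high or low pushes both differences apart and the values are given side by side only. The medians for model over control were -0.79 for smooth muscle contractile genes, 0.99 for oxidative phosphorylation, 1.13 for the tricarboxylic acid cycle, 1.38 for adipocyte and -2.36 for nerve and glia genes, where those for BXD over model were 1.16, -0.69, -0.89, -0.65 and 1.76. In the mean level of the smooth muscle contractile list, control libraries lay at 7.29 to 7.80, model at 6.49 to 7.15 and BXD at 7.75 to 8.30, as log2 CPM.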

How the data were processed

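Poly(A) RNA of rat gastric lymphatic vessels was sequenced by the authors in 9 libraries. The table deposited by the authors gives estimated counts per gene, 88.8% of them whole (within 1e-09), and FPKM. HISAT2 2.2.4, Bowtie2 2.2.5 and the build Rnor_6.0 appear in the submitters' processing notes. The counting tool and its strand setting are not given in the sources used here, so reads of genes that overlap on opposite strands cannot be told apart. A second table deposited by the authors holds log2 fold changes, p-values and q-values of DESeq2 per its header, and the mean normalized count signal of each group. Another 54 per-sample columns were not used.

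Counts were rounded and fitted for all 9 libraries with edgeR 4.0.16 in R 4.3.3 (low count filter, TMM scaling, robust quasi-likelihood test, 6 residual degrees of freedom, contrast BXD minus model, Benjamini-Hochberg adjusted p under 0.05). The biological coefficient of variation was 23.3%. Totals of 12313823 to 13455701 counts put 3 counts at 0.226 to 0.269 CPM. The script was tested on simulated counts. Alternatives were DESeq2 1.42.0, limma 3.58.1 on counts (voom) and on log2(FPKM + 1) or log2(FPKM + 0.1), other scalings and filters, covariates and left-out libraries.

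The 638 genes of 36 lists, and the comparison itself, were chosen with earlier results of these data known. Genes were named by rule: all called genes, the 6 in each direction next in p with a mean of at least 1 CPM and no overlap, the member of each list with the smallest p, the 2 most abundant of each skeletal muscle list, and up to 4 in each direction from the fits that set skeletal muscle RNA aside. Other list members were chosen for their known roles after their values were seen. Some list members are not reported here.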

Additional observations from a re-analysis of the deposited data

How the results depend on the processing

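The 9 calls of edgeR kept their direction under every alternative run. Csf2rb stayed called in 15 of 23, Synm and Asap3 in 13, Tmod1, Id4, Wnk2, Wipf3 and LOC102555341 in 12, and Wbp11l1 in 21 of 22, where the highest adjusted p was 0.489 for the first 8 genes and 0.169 for Wbp11l1. The count of calls was 9 to 13 under other scalings and 9 with a mean of at least 1 CPM. It was 1129 with DESeq2, 3 with limma-voom, 27 on log2(FPKM + 1), 26 on log2(FPKM + 0.1), 16 with no low count filter and 1 with the 6 libraries alone. It was 3 with the skeletal muscle covariate, 4 with BXD replicate 2 alone, 4 with that library against model replicates 1 and 3, 0 with the adipocyte covariate and 8 with Wbp11 and Wbp11l1 summed, the last 3 chosen after seeing the data. Leaving out 1 library gave 1 to 154. The cause of these differences was not tested.

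Log2 fold changes that reversed were those of muscle genes with BXD replicate 2 alone, namely Myh1 -2.78, Myh2 -0.17, Tmod4 -0.34, Acta1 -1.35, Tnnt3 -0.65, Ttn -2.45, Atp2a1 -1.95, Pygm -0.15, Ckm -1.25, Mb -2.11, Myf6 -1.10 and Actc1 -0.97. With the muscle covariate, a mean that includes these genes themselves, Myh1 was at -0.30, Ttn at -0.52 and Mb at -0.52. Against model replicates 1 and 3 Tmod4 was at -0.27 and Mb at -0.61. Muc6 turned to 0.022 with limma-voom and lay between -0.70 and 0.11 with 1 library left out, the highest value without model replicate 3. Pim3 lay between -0.93 without BXD replicate 1 and 0.039 without BXD replicate 3.

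Model and BXD libraries that share a replicate number did not deviate together (r = -0.11, -0.43 and -0.20 for the 3 numbers), so the numbers were not taken as pairs. The fit with the replicate block called 1 gene, Wbp11l1.

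With 3 libraries a group, 1 BXD library low in skeletal muscle RNA and model replicate 2 rich in fat cell transcripts, the number of calls depends on single libraries, and the counts of genes without overlap rest on the same few libraries.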
